A study of Mus musculus with 4 samples.

Results

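The genes that encode collagen chains, together with the enzymes and the chaperone that modify, fold and cross-link those chains, were followed in mouse embryonic stem cells (mESCs) at day 4 (d4) and day 2 (d2) of differentiation towards cardiac mesoderm. The set was taken from the table of counts per gene by gene name, with no cut on expression, but it was chosen with earlier results of these data known. It holds every row named as a collagen alpha chain, 44 genes, and 12 genes of collagen modification, namely the catalytic subunits of prolyl 4-hydroxylase, the lysyl hydroxylases, the chaperone Serpinh1 and the lysyl oxidases, which makes 56 of the 55487 genes in the table. RNA was sequenced from wild-type E14-Tg2a cells, an established mESC line, with 2 libraries per day that came, by the methods of the study, from independent differentiation experiments. For d4, aggregates grown without serum for 48 h were dissociated, and the cells were left to reaggregate over 40 h in the presence of VEGF at 5 ng/ml, BMP4 at 0.5 ng/ml and Activin A at 8 ng/ml. For d2, cells were taken at the end of the initial 48 h, before any of these factors. Day, added factors and reaggregation therefore changed together and cannot be told apart. The serum-free medium held ascorbic acid at 5 mg/ml, according to the labels, and ascorbate is the cofactor of the prolyl and lysyl hydroxylases.

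Collagens are trimeric proteins wound into a triple helix. In the endoplasmic reticulum, prolyl 4-hydroxylase modifies proline residues and so makes the helix stable at body temperature, lysyl hydroxylases modify lysine residues, and Serpinh1, also called HSP47, binds the folded procollagen. Outside the cell, fibrillar collagens are trimmed by proteinases and assemble into fibrils, type IV collagen assembles into the sheet-like network of basement membranes, on which endothelial cells rest, and lysyl oxidases cross-link the chains. Fibril-associated collagens with interrupted triple helices (FACIT) decorate fibrils, and transmembrane collagens span the plasma membrane.

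The libraries held 11397439 and 16851485 counts at d4 and 12068584 and 14038796 counts at d2. Values below are CPM (counts scaled to the library total) with the TMM factors of edgeR, and the 2 values of a day are given as replicate 1 and then replicate 2. A count of 3 in a library stands for 0.177 to 0.254 CPM, and intervals quoted below cover counting error only. With 2 libraries against 2, an exact permutation test cannot give a two-sided p below 0.333. A lack of overlap between the days is therefore weak evidence for a single gene, and its share over all genes was not counted. Pluripotency markers were 494 and 480.5 CPM in sum at d4, against 2475 and 2185 CPM at d2, with 7 of 9 lower and 2 not past the test. Most of the d4 sum was Lin28a (341 and 348.5 CPM) and Sall4 (114 and 100 CPM). Pou5f1 was at 4.40 and 3.82 CPM at d4, against 999.6 and 721.4 CPM at d2. In the same test, 12 of 12 early mesoderm markers and 10 of 11 tested endothelial markers were higher at d4. Across genes, log2 CPM values of the 2 libraries of a day correlated at 0.977 at d4 and 0.983 at d2. Within each day, the difference between the replicates followed the GC content of the genes (Spearman rho across genes, which are not independent, -0.49 at d4 and -0.71 at d2). The 38 tested members had a median GC content of 56.0%, against 49.7% over all tested genes, and their median difference of replicate 2 from replicate 1 was -0.24 at d4 and -0.36 at d2 on the log2 scale.

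Collagen genes and their modifying enzymes were mostly higher at d4. Together they took 0.238% and 0.190% of all counts at d4, against 0.0571% and 0.0422% at d2, and the libraries of the 2 days did not overlap. Of the 56 genes, 38 had enough counts to be tested and 18 were under the filter, which keeps a gene when either day is above 0.5 CPM by a proportion test. By edgeR's quasi-likelihood test at a Benjamini-Hochberg adjusted p under 0.01, 23 members were higher at d4, 1 was lower, and 14 did not pass. Over all 14932 tested genes, 24.3% were called in either direction, 12.9% as higher and 11.3% as lower. The median log2 fold change was 2.46 over the 38 tested members and -0.03 over all tested genes. Because the filter admits a gene that is high in only 1 day, the 38 do not stand for all 56. When either d2 library was left out, edgeR gave no call for any gene, with 31 members at an unadjusted p under 0.05 without d2 replicate 1 and 30 without d2 replicate 2, while DESeq2 called 19 and 18 members as higher without these libraries and 0 and 1 as lower. Without d4 replicate 1 and without d4 replicate 2, edgeR called 25 and 24 members as higher and 2 and 1 as lower. With the trend on GC content and length removed, 24 members were higher and 3 were lower, and the 24 members called here all kept their call. With the replicate number as a block, 27 were higher and 4 were lower, again with these 24 among them. The tested members that this block or another setting added are given below. A fit without a d4 or d2 library leaves 1 library in that day, so its spread comes from the 2 libraries of the other day and the lone library is assumed to vary like them. RNA of a bulk sample is a mean over its cells, so fewer cells of a type and less RNA per cell cannot be told apart.

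**Figure D1:**
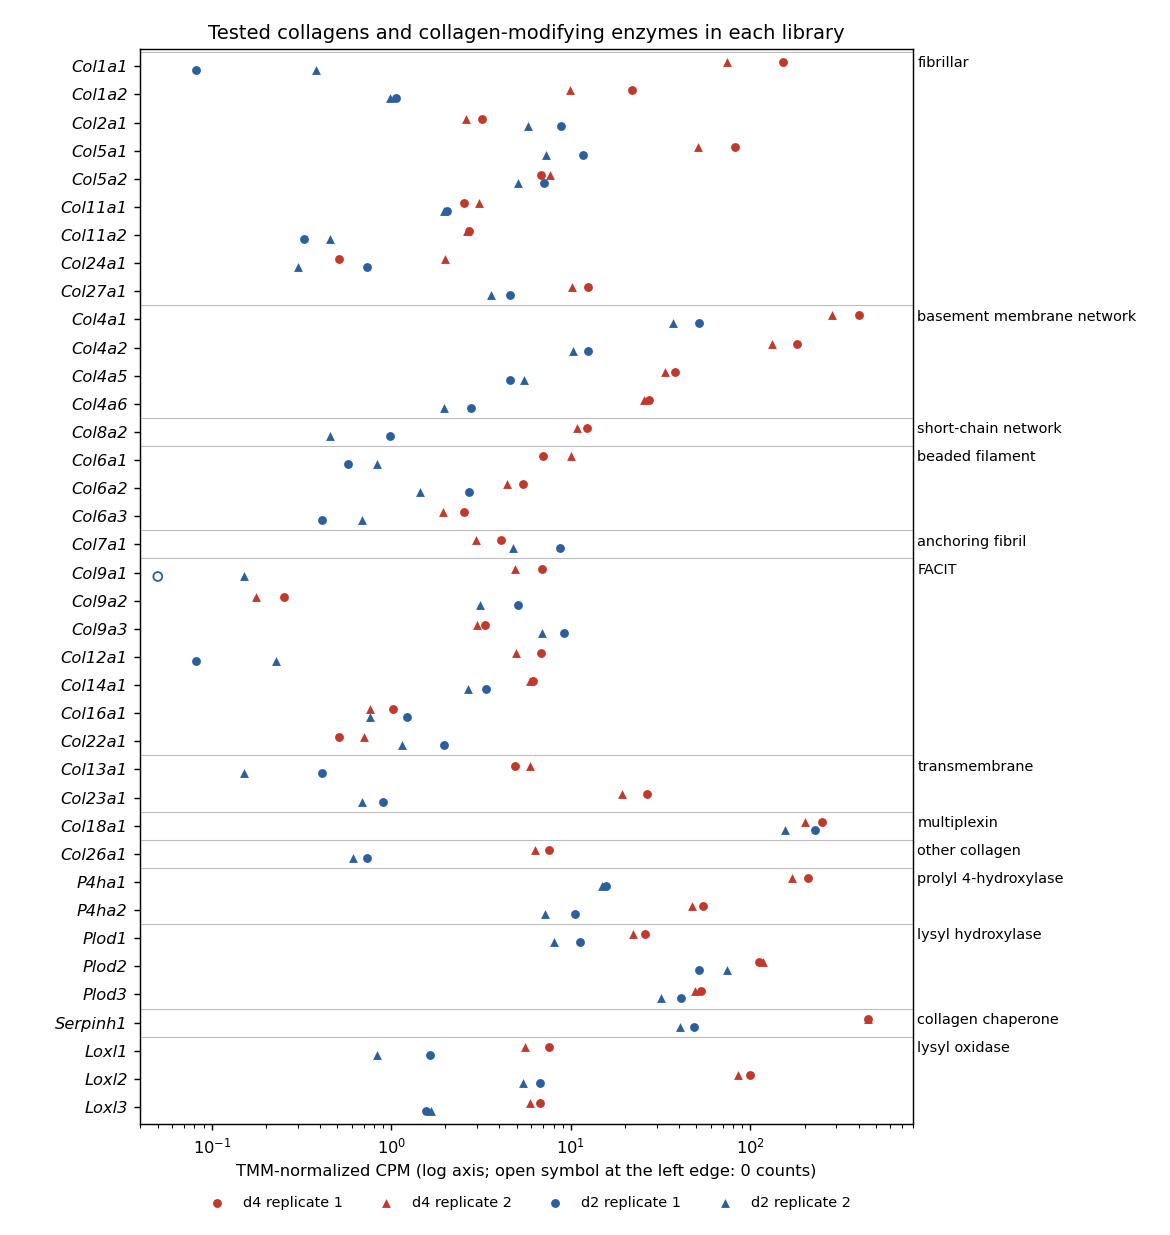
Level of each of the 38 tested members in each library, as TMM-normalized CPM on a log axis, by collagen class and enzyme role. Red symbols are d4 and blue symbols d2, circles are replicate 1 and triangles replicate 2, and the open circle at the left edge is a count of 0. Red and blue symbols overlap for Col5a2, Col24a1, Col16a1 and Col18a1.

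The type IV collagens, the chains of the basement membrane network, rose for 4 of the 6 genes, and each gene of the remaining pair had at most 3 counts over all libraries. Col4a1 (ENSMUSG00000031502.11, GRCm38 chromosome 8 from 11198423 to 11312826, minus strand) had 400.4 and 284 CPM at d4, against 51.8 and 36.8 CPM at d2 (log2 fold change 2.95, standard error 0.28, adjusted p = 3.4e-04). Col4a2 (ENSMUSG00000031503.13, chromosome 8 from 11312805 to 11449287, plus strand), whose product joins that of Col4a1 in the most widespread type IV trimer, had 182 and 131 CPM at d4, against 12.4 and 10.3 CPM at d2. Its log2 fold change was 3.78 (standard error 0.27, adjusted p = 1.2e-04). For both genes the days differed by far more than the libraries of a day. Col4a5 and Col4a6 encode the chains of another type IV trimer, found in some epithelial and smooth muscle basement membranes. Col4a5 was at 38.0 and 33.4 CPM at d4, against 4.58 and 5.47 CPM at d2 (log2 fold change 2.83, standard error 0.24, adjusted p = 2.3e-04). Col4a6 was at 27.2 and 25.5 CPM at d4, against 2.78 and 1.97 CPM at d2 (log2 fold change 3.47, standard error 0.28, adjusted p = 1.8e-04). Col4a3 and Col4a4, the chains that join Col4a5 in the glomerular basement membrane, had 1 and 0 counts over both d4 libraries, against 0 and 3 counts over both d2 libraries.

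The 6 type IV genes lie in 3 head-to-head pairs. In the annotation, the start sites of Col4a1 and Col4a2 overlap by 22 bp, those of Col4a4 and Col4a3 are 72 bp apart on chromosome 1, and those of Col4a6 and Col4a5 are 1309 bp apart on chromosome X. The 250 bases before the RefSeq start of Col4a1, chr8:11312827-11313076 on the minus strand of GRCm38, are shown because they also lie inside the annotated Col4a2 gene, just after its start, so that this window belongs to both genes of the pair. The capitals mark a CCAAT box, which reads ATTGG on this strand.
Col4a1: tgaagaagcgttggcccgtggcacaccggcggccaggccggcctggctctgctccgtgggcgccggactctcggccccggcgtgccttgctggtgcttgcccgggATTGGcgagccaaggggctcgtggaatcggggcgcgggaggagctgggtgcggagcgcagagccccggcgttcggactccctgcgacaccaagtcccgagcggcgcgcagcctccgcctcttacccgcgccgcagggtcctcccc
The pair members moved in the same direction, and the ratio within a pair was compared between the days. Per kb of exon, Col4a1 was 1.95 and 1.92 times Col4a2 at d4, against 3.68 and 3.15 times at d2, a difference of -0.81 on the log2 scale. Col4a5 was 1.66 and 1.56 times Col4a6 at d4, against 1.93 and 3.21 times at d2, a difference of -0.63. For this pair the d2 libraries differed from each other by more than that (log2 ratios of 0.951 and 1.682), on 34 and 26 counts of Col4a6. An unequal change of Col4a5 and Col4a6 is therefore not established. In both pairs the d4 ratios were lower than the d2 ratios without overlap, and the exact permutation test over 2 libraries against 2 gave its smallest possible two-sided p of 0.333 in each.

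Among the fibrillar collagens, 5 of 9 tested genes rose, none fell past the threshold, and 2 of the 11 were under the filter. Col1a1 (ENSMUSG00000001506.10, chromosome 11 from 94936224 to 94953042), a chain of type I collagen, the main collagen of bone, skin and tendon, had 153 and 74.5 CPM at d4, against 0.0818 and 0.380 CPM at d2. Its log2 fold change, 8.86 with a standard error of 0.63 (adjusted p = 1.2e-04), was the largest of the set and rests on only 6 counts over both d2 libraries. Col1a2 (ENSMUSG00000029661.16, chromosome 6 from 4504814 to 4541544), the other type I chain, was at 21.9 and 9.88 CPM at d4, against 1.06 and 0.987 CPM at d2 (log2 fold change 3.94, standard error 0.48, adjusted p = 9.3e-04). For both type I genes the d4 libraries lay above the d2 libraries, and d4 replicate 1 lay well above d4 replicate 2.

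The balance of the type I chains differed between the days. Col1a1 was 13.1 and 14.2 times Col1a2 per kb of exon at d4, against 0.271 and 0.811 times at d2, a difference of 4.87 on the log2 scale (exact permutation p = 0.333, the smallest the design allows). The size of the ratio depends on the gene model, since the joined exons of Col1a2 span 12426 bases. In counts not divided by length, with 1 added to each count as in all these ratios, it was 6.94 and 7.50 at d4, against 0.143 and 0.429 at d2, and with the longest transcript as the length it was 6.26 and 6.76 at d4, against 0.129 and 0.387 at d2. The difference between the days is the same under each length, because a length cancels between libraries.

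Col5a1, whose chain helps to nucleate fibrils, had 82.4 and 51.1 CPM at d4, against 11.6 and 7.29 CPM at d2 (log2 fold change 2.82, standard error 0.35, adjusted p = 9.4e-04). Its partner chain Col5a2 did not pass the test, with 6.77 and 7.65 CPM at d4, against 7.12 and 5.09 CPM at d2 (log2 fold change 0.24, adjusted p = 0.541), and its libraries overlapped. The log2 ratio of Col5a1 to Col5a2 counts was 3.59 and 2.73 at d4, against 0.70 and 0.51 at d2, a comparison chosen after these values were seen. Of the type XI chains, Col11a2 was higher, at 2.71 and 2.65 CPM at d4, against 0.327 and 0.456 CPM at d2 (log2 fold change 2.74, standard error 0.41, adjusted p = 0.00222), a call that DESeq2 lost with any 1 library left out (adjusted p = 0.109 to 0.15). Col11a1 had 2.54 and 3.06 CPM at d4, against 2.04 and 1.97 CPM at d2, and did not pass (log2 fold change 0.48, adjusted p = 0.274).

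Col27a1, a fibrillar collagen known from cartilage, was at 12.4 and 10.1 CPM at d4, against 4.58 and 3.57 CPM at d2 (log2 fold change 1.47, standard error 0.28, adjusted p = 0.00671), and DESeq2 lost the call with any 1 library left out (adjusted p = 0.0488 to 0.221). Col2a1, the main collagen of cartilage and of the notochord, was the tested fibrillar gene with a negative value, at 3.22 and 2.59 CPM at d4, against 8.75 and 5.77 CPM at d2 (log2 fold change -1.33, adjusted p = 0.019). It did not pass in this fit, but passed as lower in other fits to the same 4 libraries, with the replicate block (log2 fold change -1.30, adjusted p = 1.0e-04), with the GC and length trend removed (-1.51, adjusted p = 0.00133) and with no filter (-1.32, adjusted p = 7.2e-04), and also without d4 replicate 1 (-1.48, adjusted p = 0.00888). Col24a1 had 0.508 and 2.00 CPM at d4, against 0.736 and 0.304 CPM at d2, with overlapping libraries (adjusted p = 0.203), and passed as higher without d4 replicate 1, the d4 library that lies within the d2 range (log2 fold change 1.95, adjusted p = 0.00532, with d4 replicate 2 alone for d4). Under the filter, Col3a1 had 10 and 11 counts at d4, against 0 and 1 at d2, a ratio of normalized counts of 18.5 (95% counting interval 2.98 to 766). Col5a3 had 1 and 1 counts at d4, against 7 and 11 at d2, a ratio of 0.0979 (95% counting interval 0.0110 to 0.409).

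The FACIT collagens moved in both directions, with 2 of the 7 tested members above d2, 1 below it and 4 that missed the threshold. The chains of type IX collagen, which forms a trimer of the Col9a1, Col9a2 and Col9a3 products on cartilage fibrils, went apart. Col9a1 had 82 and 83 counts, or 6.94 and 4.88 CPM, at d4, against 0 and 2 counts at d2, a ratio of normalized counts of 72.7 (95% counting interval 19.8 to 606; log2 fold change 6.07, standard error 0.68, adjusted p = 6.2e-04). Col9a2 (ENSMUSG00000028626.5, chromosome 4 from 121039385 to 121055322), the only tested member called lower at d4, had 3 counts in each d4 library, 0.254 and 0.176 CPM, against 5.07 and 3.11 CPM at d2. Its log2 fold change was -4.23 (standard error 0.51, adjusted p = 8.5e-04), and DESeq2 no longer called it without d2 replicate 1 (log2 fold change -3.89, adjusted p = 0.0498). Col9a3 had 3.30 and 3.00 CPM at d4, against 9.16 and 6.91 CPM at d2, and just missed the threshold (log2 fold change -1.35, adjusted p = 0.0109). It passed as lower with DESeq2 (-1.36, adjusted p = 0.00568), upper-quartile factors (-1.44, adjusted p = 0.00817), no filter (-1.34, adjusted p = 4.6e-04), the trend removed (-1.50, adjusted p = 0.00114) and the replicate block (-1.33, adjusted p = 4.4e-05). For Col9a1 both d4 libraries were above both d2 libraries, and for Col9a2 and Col9a3 they were below. The log2 ratio of Col9a1 to Col9a2 counts, chosen after the values were seen, was 4.38 and 4.39 at d4, against -5.98 and -3.81 at d2.

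Col12a1, a FACIT collagen of type I fibrils, was at 6.86 and 4.94 CPM at d4, against 0.0818 and 0.228 CPM at d2 (log2 fold change 5.14, standard error 0.52, adjusted p = 4.1e-04). Col14a1, a related gene, had 6.18 and 5.94 CPM at d4, against 3.35 and 2.66 CPM at d2, and did not pass (log2 fold change 1.01, adjusted p = 0.0321), except with the replicate block (1.02, adjusted p = 0.0022). Col16a1 had 1.02 and 0.765 CPM at d4, against 1.23 and 0.759 CPM at d2 (log2 fold change -0.17, adjusted p = 0.798), and Col22a1 had 0.508 and 0.706 CPM at d4, against 1.96 and 1.14 CPM at d2 (log2 fold change -1.31, adjusted p = 0.0702). Col19a1 had 1 and 2 counts at d4, against 0 and 0 at d2, and Col20a1 had 5 and 9 counts at d4, against 1 and 1 at d2, a ratio of 6.17 (95% counting interval 1.42 to 55.9).

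Markers of notochord and cartilage, where types II, IX and XI collagen are best known, were divided in the same libraries. Of 11 such genes, 6 were tested, 2 were higher, 3 lower and 1 did not pass, and their summed level was 85.9 and 240 CPM at d4, against 11.7 and 8.51 CPM at d2. Nearly all of the d4 sum was Hapln1, a link protein of hyaluronan, with 78.5 and 233 CPM at d4, against 0 and 0 counts at d2. The paper also lists Hapln1 among marker genes of an endothelial cluster of sorted mouse embryo cells, so its level is not particular to cartilage. Sox9, a regulator of chondrogenesis, was also higher (log2 fold change 2.26, adjusted p = 0.00425), while Acan (-6.09, adjusted p = 0.00149), Matn3 (-3.12, adjusted p = 9.9e-04) and Foxj1 (-3.89, adjusted p = 0.00226) were lower, and Noto, a defining notochord gene, had 0 counts in every library. The part of such cells in the collagen values was not tested.

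Beaded filaments are built from type VI collagen, a trimer of the Col6a1 and Col6a2 products with that of Col6a3 or of a Col6a4 to Col6a6 gene. Col6a1 was higher, at 7.03 and 10.1 CPM at d4, against 0.572 and 0.835 CPM at d2 (log2 fold change 3.58, standard error 0.39, adjusted p = 5.4e-04). Col6a2 had 5.42 and 4.41 CPM at d4, against 2.70 and 1.44 CPM at d2 (log2 fold change 1.24, adjusted p = 0.0404), and Col6a3 had 2.54 and 1.94 CPM at d4, against 0.409 and 0.683 CPM at d2 (log2 fold change 2.00, adjusted p = 0.0112). Neither Col6a2 nor Col6a3 passed in this fit. On the same 4 libraries both passed as higher with the replicate block (Col6a2 adjusted p = 8.0e-04, Col6a3 adjusted p = 6.0e-04) and with no filter (Col6a2 adjusted p = 0.00287, Col6a3 adjusted p = 1.3e-04), and Col6a3 passed in thinned counts (adjusted p = 0.00935). Col6a3 also passed without d4 replicate 1 (log2 fold change 1.81, adjusted p = 0.00877) and without d4 replicate 2 (2.19, adjusted p = 0.00101). The alternatives to Col6a3 were under the filter and were counted only at d2. Col6a4 had 0 and 0 counts at d4, against 8 and 10 at d2, Col6a5 had 0 and 0 counts at d4, against 2 and 6 at d2, and Col6a6 had 0 and 0 counts at d4, against 1 and 1 at d2.

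The transmembrane collagens Col13a1 and Col23a1 were higher at d4. Col23a1 (ENSMUSG00000063564.13, chromosome 11 from 51289920 to 51583918) was at 26.7 and 19.3 CPM at d4, against 0.900 and 0.683 CPM at d2 (log2 fold change 4.85, standard error 0.35, adjusted p = 1.2e-04). Col13a1, known from neuromuscular junctions and focal adhesions, was at 4.91 and 5.94 CPM at d4, against 0.409 and 0.152 CPM at d2 (log2 fold change 4.25, standard error 0.48, adjusted p = 6.2e-04). Col17a1, of the hemidesmosomes of epithelia, had 0 and 5 counts at d4, against 9 and 7 at d2, and Col25a1 had 5 and 10 counts at d4, against 4 and 3 at d2. Col8a2, a short-chain collagen of the cornea and of vessel walls, rose to 12.4 and 10.8 CPM at d4, against 0.981 and 0.456 CPM at d2 (log2 fold change 4.00, standard error 0.40, adjusted p = 4.1e-04). Its usual partner Col8a1, and Col10a1 of hypertrophic cartilage, had 0 counts in every library. Col26a1 was at 7.53 and 6.30 CPM at d4, against 0.736 and 0.608 CPM at d2 (log2 fold change 3.35, standard error 0.35, adjusted p = 4.9e-04), and Col28a1 had 1 and 1 counts at d4, against 1 and 3 at d2.

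Col18a1 and Col7a1 did not pass the test. Col18a1 (ENSMUSG00000001435.15, chromosome 10 from 77052178 to 77166548), a multiplexin of basement membranes whose C-terminal fragment is endostatin, had 251 and 202 CPM at d4, against 228 and 156 CPM at d2 (log2 fold change 0.24, standard error 0.25, adjusted p = 0.489), and the libraries of the days overlapped. Its relative Col15a1 had 1 and 0 counts at d4, against 6 and 1 at d2. Col7a1, the anchoring fibril collagen of the epidermal junction, had 4.06 and 2.94 CPM at d4, against 8.67 and 4.78 CPM at d2 (log2 fold change -0.95, adjusted p = 0.0935). Col7a1 passed as lower with the replicate block (-0.90, adjusted p = 0.0045) and with the block and the trend removed (-1.09, adjusted p = 0.0024).

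**Figure D2:**
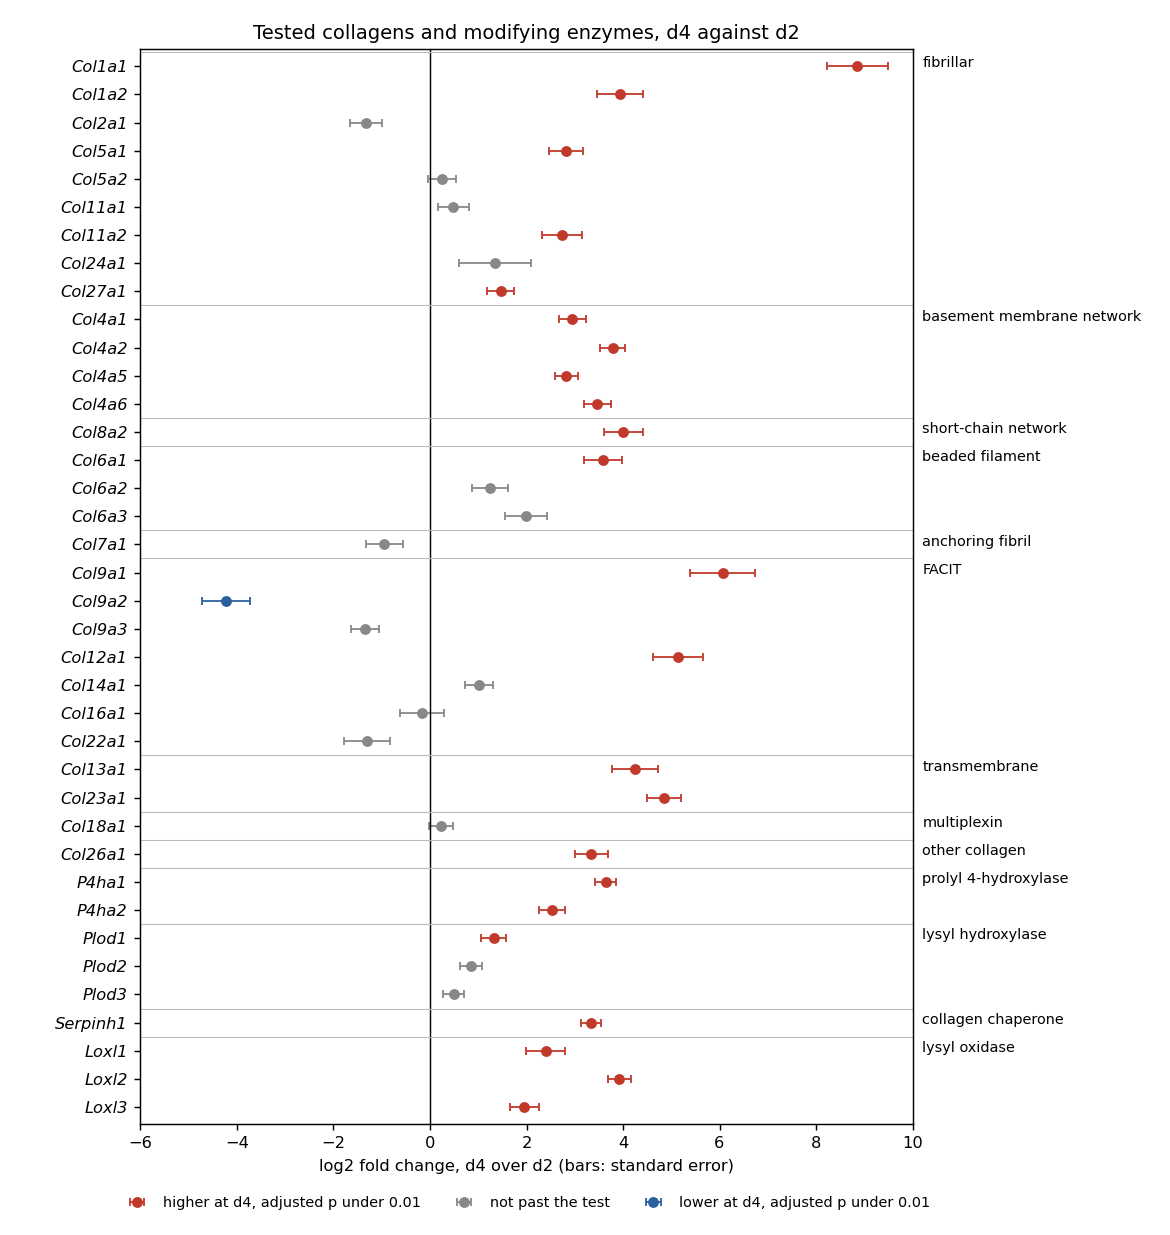
Log2 fold change, d4 over d2, of each of the 38 tested members from edgeR, with bars for 1 standard error. Red points passed as higher at d4 (23 genes), the blue point passed as lower (Col9a2), and grey points did not pass (14 genes). The values reach 8.86 for Col1a1 and -4.23 for Col9a2.

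The make-up of the collagen RNA was compared between the days per kb of exon, so that genes of different length can be set side by side. The summed level of the 44 collagen genes was 180 and 130 CPM per kb at d4, against 53.3 and 37.6 CPM per kb at d2. Basement membrane network genes held 50.2% and 50.7% of this sum at d4, against 18.5% and 20.1% at d2. Multiplexins, almost wholly Col18a1, held 19.9% and 22.0% at d4, against 61.0% and 59.1% at d2. Thus the collagen gene with the highest level per kb was Col4a1 at d4, in both libraries, and Col18a1 at d2, in both libraries. Fibrillar genes held 20.9% and 16.1% at d4, against 7.31% and 7.49% at d2, of which Col1a1 alone held 12.9% and 8.71% at d4, against 0.0234% and 0.154% at d2. FACIT genes held 2.19% and 2.52% at d4, against 9.21% and 9.23% at d2, and transmembrane genes held 3.20% and 3.64% at d4, against 0.738% and 0.686% at d2. For each of these classes the shares of the 2 days did not overlap. The lower shares of multiplexins and FACIT genes are shares of a larger sum. The level of multiplexins was 35.7 and 28.7 CPM per kb at d4, against 32.5 and 22.3 CPM per kb at d2, and that of FACIT genes was 3.94 and 3.28 CPM per kb at d4, against 4.91 and 3.47 CPM per kb at d2, and both levels overlapped between the days. With the longest transcript in place of the joined exons, the share of the basement membrane network was 47.5% and 47.8% at d4, against 16.6% and 18.0% at d2. This class holds the type IV genes only. Col18a1, also a collagen of basement membranes, is counted with the multiplexins, whose share was lower at d4. The shares therefore show more type IV relative to Col18a1, and not a larger share of all basement membrane collagens.

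**Figure D3:**
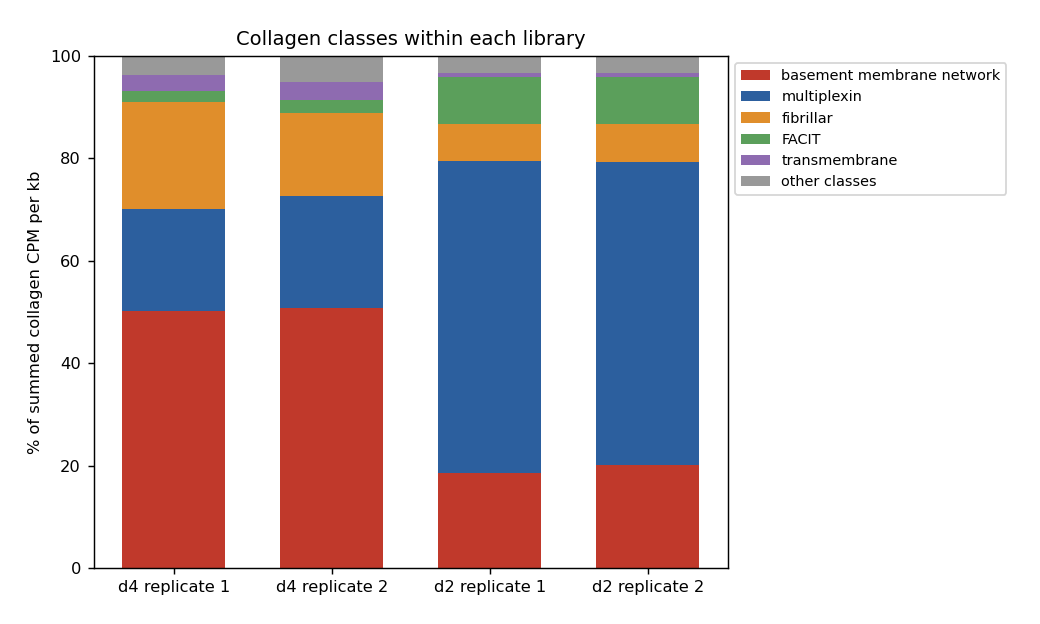
Share of each collagen class in the summed collagen level of a library, in percent of CPM per kb of exon, as stacked bars for d4 replicates 1 and 2 and d2 replicates 1 and 2. The basement membrane network (red) takes 50.2% and 50.7% at d4, against 18.5% and 20.1% at d2, and multiplexins (blue) take 19.9% and 22.0% at d4, against 61.0% and 59.1% at d2.

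**Figure D4:**
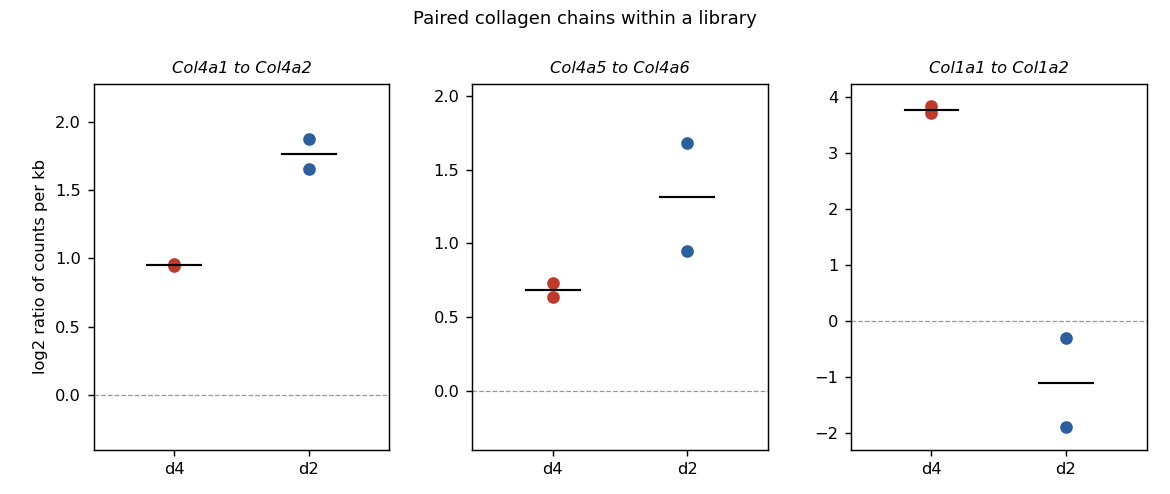
Log2 ratio, per kb of exon, of the chains Col4a1 to Col4a2, Col4a5 to Col4a6 and Col1a1 to Col1a2 within each library, with 1 point per library, a bar at the mean of a day and a dashed line at equal levels. The d4 points lie below the d2 points for both type IV pairs and above them for the type I pair, where the means differ by 4.87.

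The enzymes that modify collagen chains in the endoplasmic reticulum rose for 2 of 3 prolyl 4-hydroxylase subunits, for the chaperone and for 1 of 3 lysyl hydroxylases. P4ha1 (ENSMUSG00000019916.14, chromosome 10 from 59323296 to 59373304), the main catalytic subunit of prolyl 4-hydroxylase, had 210 and 171 CPM at d4, against 15.8 and 14.8 CPM at d2 (log2 fold change 3.64, standard error 0.23, adjusted p = 8.6e-05). P4ha2 was at 54.6 and 47.3 CPM at d4, against 10.6 and 7.14 CPM at d2 (log2 fold change 2.53, standard error 0.27, adjusted p = 5.1e-04), and P4ha3 had 4 and 5 counts at d4, against 4 and 3 at d2. Their common partner subunit P4hb, a protein disulfide isomerase that also works outside the collagen pathway, had a log2 fold change of 0.84 and just missed the threshold (adjusted p = 0.0104). Serpinh1 (ENSMUSG00000070436.12, chromosome 7 from 99345376 to 99353239) was at 449 and 453 CPM at d4, against 48.3 and 40.6 CPM at d2 (log2 fold change 3.34, standard error 0.21, adjusted p = 8.8e-05). Per kb of exon it had the highest mean level of the set at d4, 185 CPM per kb, against 18.2 CPM per kb at d2.

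Plod1, a lysyl hydroxylase that acts within the helix, was at 26.0 and 22.2 CPM at d4, against 11.2 and 8.05 CPM at d2 (log2 fold change 1.32, standard error 0.26, adjusted p = 0.00726). The call was lost when all libraries were thinned to the smallest (log2 fold change 1.26, adjusted p = 0.0112), and by DESeq2 with any 1 library left out (adjusted p = 0.022 to 0.192). Plod2, which modifies the telopeptides used for cross-links, had 111 and 117 CPM at d4, against 51.9 and 74.5 CPM at d2 (log2 fold change 0.85, adjusted p = 0.0274). Plod3, which also transfers sugars to hydroxylysine, had 53.1 and 49.0 CPM at d4, against 41.0 and 31.7 CPM at d2 (log2 fold change 0.49, adjusted p = 0.125). Neither Plod2 nor Plod3 passed in this fit. Plod2 passed as higher with the replicate block (log2 fold change 0.87, adjusted p = 1.0e-04), with the GC and length trend removed (1.04, adjusted p = 0.00164), with both (1.03, adjusted p = 1.3e-04) and with no filter (0.86, adjusted p = 0.00323).

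The lysyl oxidases act on the secreted chains. Loxl2 (ENSMUSG00000034205.16, chromosome 14 from 69609068 to 69695834), which can cross-link type IV collagen, was at 99.0 and 85.0 CPM at d4, against 6.71 and 5.39 CPM at d2 (log2 fold change 3.93, standard error 0.25, adjusted p = 8.8e-05). Loxl1, known for elastic fibers, was at 7.53 and 5.53 CPM at d4, against 1.64 and 0.835 CPM at d2 (log2 fold change 2.40, standard error 0.41, adjusted p = 0.00384). Loxl3 was at 6.69 and 5.88 CPM at d4, against 1.55 and 1.67 CPM at d2 (log2 fold change 1.95, standard error 0.30, adjusted p = 0.0026). DESeq2 lost the Loxl3 call with any 1 library left out (adjusted p = 0.0631 to 0.0999) and the Loxl1 call with any library but d2 replicate 1 left out (adjusted p = 0.0175 to 0.101). All 3 genes were higher in both d4 libraries than in either d2 library. Lox itself was under the filter, with 1 and 4 counts at d4, against 1 and 0 at d2, and so was Loxl4, with 3 and 11 counts at d4, against 0 and 1 at d2, a ratio of 12.3 (95% counting interval 1.88 to 522).

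The promoters of P4ha1 and Serpinh1, enzyme and chaperone genes with among the smallest adjusted p of the set, are shown to set their proximal sequence beside that of Col4a1. They are the 250 bases before the RefSeq start on GRCm38, chr10:59323046-59323295 on the plus strand for P4ha1 and chr7:99353240-99353489 on the minus strand for Serpinh1. Capitals mark a GC box (GGGCGG) and the core of the hypoxia response element (ACGTG, here in reverse complement).
P4ha1: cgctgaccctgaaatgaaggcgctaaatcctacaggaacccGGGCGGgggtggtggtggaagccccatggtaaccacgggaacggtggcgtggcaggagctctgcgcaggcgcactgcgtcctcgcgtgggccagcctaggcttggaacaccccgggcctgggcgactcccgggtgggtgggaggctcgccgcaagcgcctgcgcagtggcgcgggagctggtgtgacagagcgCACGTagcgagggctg
Serpinh1: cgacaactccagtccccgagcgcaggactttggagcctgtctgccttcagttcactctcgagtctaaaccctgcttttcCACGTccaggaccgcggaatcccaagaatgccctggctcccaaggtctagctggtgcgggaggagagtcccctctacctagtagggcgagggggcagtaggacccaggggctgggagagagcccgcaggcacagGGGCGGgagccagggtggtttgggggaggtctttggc
RefSeq windows were found for 42 of the 56 members, 17 of them called higher, and were searched on both strands for CCAAT (the CCAAT box), GGGCGG (the GC box), ACGTG (the hypoxia core) and TATAAA (the TATA box). None of these contains another, and only a palindrome such as that of the E-box can match the hypoxia core on both strands at once. Members are counted by gene, with a match in any window of the gene, and the background is counted by window. This difference favours members with several windows, namely Col9a1, Col6a2 and Col18a1. GGGCGG was found in 13 of the 17 promoters of members called higher and in 14 of the 25 others, against 32.7% of all 32851 windows of this length. ACGTG was in 6 of the 17 and 3 of the 25, against 16.6% of all windows. CCAAT was in 5 of the 17 and 9 of the 25, against 33.8%, and TATAAA in 3 of the 17 and 3 of the 25, against 12.4%. The member windows had a median GC content of 60.4%, against 52.4% over all windows, which bears on the frequency of GC-rich motifs. A match of letters is a description and shows no binding.

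Other genes of the collagen pathway come from lists of the steps before and after the members. Over all tested genes, 12.9% were called higher and 11.3% lower. The few lower calls in these lists are not read as a result about the pathway. Of 14 further modifying enzymes and chaperones, all tested, 5 were higher and none was lower. They were the prolyl 3-hydroxylases P3h2 (log2 fold change 2.56) and P3h1 (1.54), their relative P3h4 (1.89), and the prolyl isomerases Fkbp7 (2.66) and Fkbp14 (2.23), with adjusted p of 7.1e-04 to 0.00354. Of 11 genes of procollagen export, 3 were higher and 1 was lower. Creb3l2, a transcription factor of secretory genes, was at 78.7 and 55.5 CPM at d4, against 3.11 and 2.28 CPM at d2 (log2 fold change 4.64, adjusted p = 1.1e-04). Sparc, a secreted collagen-binding protein (log2 fold change 2.54, adjusted p = 2.2e-04), and Creb3l1, a relative of Creb3l2 (1.87, adjusted p = 0.00934), were also higher, and Sec24d, a COPII coat subunit, was lower (-1.02, adjusted p = 0.00847). The general coat genes Sec23a, Sec13 and Sec31a did not pass.

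Outside the cell, 7 of 10 procollagen proteinases and enhancers were tested, with 3 higher and 1 lower. Adamts2, which removes the N-propeptides of fibrillar procollagens, was at 42.0 and 39.2 CPM at d4, against 1.55 and 0.456 CPM at d2 (log2 fold change 5.34, adjusted p = 2.5e-04). Adamts3 (3.71, adjusted p = 1.8e-04), of the same family, and Bmp1 (2.53, adjusted p = 8.4e-04), the C-proteinase, were higher, and Adamts14 (-3.27, adjusted p = 0.00207), also of that family, was lower. Of 10 collagen receptors, 6 were tested. Of these, 3 did not pass, namely Itga1, which just missed the threshold (log2 fold change -1.47, adjusted p = 0.0101), Itga10 (1.46, adjusted p = 0.0181) and Mrc2 (0.45, adjusted p = 0.22). Itgb1, the common beta subunit of the collagen-binding integrins (log2 fold change 1.34, adjusted p = 0.00331), and Itga11, an alpha subunit for fibrillar collagens (6.29, adjusted p = 0.00105, on 1 count over both d2 libraries), were higher, and Ddr1, a receptor tyrosine kinase for collagen, was lower (-1.48, adjusted p = 0.00511). Of 10 small leucine-rich proteoglycans, which bind fibrils, 3 were tested. Bgn was higher (log2 fold change 4.54, adjusted p = 0.00115), Dcn was lower (-3.75, adjusted p = 0.0017), and both were under 3 CPM in every library.

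Markers of several cell types also differed between the days. Endothelial markers summed to 790 and 582 CPM at d4, against 33.5 and 28.2 CPM at d2, with Cldn5 not past the test and Emcn under the filter. Of 13 genes of mural cells and fibroblasts, 8 were tested, 4 were higher and 2 lower, and their sum was 316 and 348 CPM at d4, against 75.7 and 63.3 CPM at d2. Pdgfrb (log2 fold change 5.15), Rgs5 (11.52), Postn (11.17) and Acta2 (1.90) were higher, Cnn1 (-2.59) and Thy1 (-3.74) were lower, and the fibroblast genes Fap and S100a4 had 0 counts in every library. Of 16 genes of parietal and visceral endoderm (parietal endoderm secretes much type IV collagen), 8 were tested and 3 were higher, namely Pth1r, Thbd and Spink1. The sum over the 16 was 55.8 and 54.4 CPM at d4, against 20.2 and 20.4 CPM at d2. Most of the d4 sum was Pth1r (19.6 and 22.3 CPM) and Dab2 (18.1 and 18.9 CPM), of which Dab2 did not pass. The genes Afp, Ttr and Apoa2 had 2, 17 and 0 counts over both d4 libraries, against 0, 0 and 1 over both d2 libraries. Others went either way without passing. Hnf4a had 18 and 13 counts at d4, against 2 and 0 at d2 (adjusted p = 0.0202), and Cubn had 10 and 18, against 24 and 15. Under the filter, Apoa1 had 11 and 2 counts at d4, against 1 and 1 at d2, and Amn had 1 and 0, against 8 and 4. Of 10 neuroectoderm genes, 5 were tested and all 5 were lower, with a sum of 70.2 and 60.5 CPM at d4, against 202 and 173 CPM at d2. Most of the d4 sum was Nes, at 64.8 and 55.8 CPM. The part of each cell type in the collagen values was not tested.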

How the data were processed

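The libraries were strand-specific and were read from both ends at 75 bp. Per the methods of the study, trimming used cutadapt v2.9, alignment to the mm10 build (GRCm38) used STAR v2.6.0a, and counting used Rsubread v2.0.1, leaving out reads that mapped to several places or overlapped several genes. Their methods name the annotation as GENCODE M10 and as Ensembl 102. The deposited values are raw counts per gene, with no filter or normalization. Gene IDs were matched to GENCODE M21 of GRCm38 (55227 of 55487 found). The members, classes and gene lists were chosen with earlier results of these data known, and every member is named.

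Genes were kept when a one-sided proportion test of the summed counts of either day against 0.5 CPM had an adjusted p under 0.05. The comparison of d4 with d2 used edgeR 4.0.16 in R 4.3.3 (TMM, quasi-likelihood F test, two-sided, day as the only term, Benjamini-Hochberg over 14932 genes, threshold 0.01). Standard errors came from the coefficient and the F statistic. The design has 2 libraries per day, and p-values measure the spread between these. Levels per kb use joined exons. Chain ratios add 1 to each count. Gene lists were described by counts only. From each list, the genes past the test are named, up to 6 with the smallest adjusted p in each direction, and any defining marker at or near 0. Strand-specific counting limits the effect of opposite-strand overlaps. Promoter sequences are those of RefSeq for GRCm38.p6. The procedure was also run on simulated counts. These held no replicate or GC effect, so that run does not cover the GC trend between the replicates of these data.

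Alternatives were DESeq2 size factors, upper-quartile factors, other filters, DESeq2 1.42.0, limma 3.58.1 voom, a threshold of 0.05 on the adjusted p, a minimum log2 fold change of 1, thinned counts, removal of a GC and length trend, a replicate block, and leaving out each library. DESeq2 without each library, and the longest transcript as length, were added after the data were seen.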

Additional observations from a re-analysis of the deposited data

How the results depend on the processing

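All 24 called members kept their sign under every alternative, and all kept their call under every alternative that used the 4 whole libraries, apart from Plod1 in thinned counts. Lower members numbered 2 with upper-quartile factors and with DESeq2 (Col9a3 joined Col9a2), 3 at an adjusted p under 0.05 and with the GC and length trend removed, and 5 with no filter. Without the filter 27 members were higher, and 2901 genes were higher and 2873 lower. That setting tested 54 members, and its higher and lower calls include members under the main filter, which are given above by counts only. At an adjusted p under 0.05 the genes numbered 2991 and 2679, with 27 members higher, and with the GC and length trend removed 2660 genes were lower. The study describes 2 independent differentiation experiments, but neither it nor the labels say that a replicate number stands for the same experiment at both days. The difference of replicate 2 from replicate 1 correlated between the days (r = 0.482 across genes). With the replicate block, which added Col6a2, Col6a3, Col14a1 and Plod2 as higher and Col2a1, Col7a1 and Col9a3 as lower, 27 members were higher and 4 lower, and 3478 genes were higher and 3496 lower. With the replicate block and the trend removed, 24 members were higher and 4 lower, and 3321 genes were higher and 3409 lower.

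With each library left out in turn, edgeR called 0 to 25 members as higher and 0 to 2 as lower, and 0 to 2264 genes as higher and 0 to 2458 as lower. The counts of 0 are those without either d2 library, where the lowest adjusted p was 0.0189 and 0.018 and 6257 and 5973 genes had an unadjusted p under 0.05. DESeq2 with each library left out called 18 to 19 members as higher and 0 to 1 as lower, and 1042, 973, 1247 and 1272 genes as higher and 732, 722, 1127 and 1456 as lower without d2 replicate 1, d2 replicate 2, d4 replicate 1 and d4 replicate 2, in this order. It kept 19 of the 24 member calls each time and lost Col11a2, Col27a1, Plod1 and Loxl3 each time, with Col9a2 lost without d2 replicate 1 and Loxl1 otherwise.

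Members that did not pass reversed as follows. Col5a2 was -0.005 with the trend removed and lay between -0.032 (without d2 replicate 2) and 0.503 with a library left out. Col18a1 lay between -0.072 (without d2 replicate 2; -0.029 there with DESeq2) and 0.524. Col16a1 lay between -0.534 and 0.202, and was above 0 without d2 replicate 1 (0.202, and 0.206 with DESeq2) and without d4 replicate 2 (0.044, and 0.026 with DESeq2). Upper-quartile factors moved the median over the whole table to -0.112 on the log2 scale. The cause of these shifts was not tested. The low counts at d2 limit the fold changes of Col1a1, Col9a1 and Col12a1, and those at d4 limit Col9a2.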
